A study of Saccharomyces cerevisiae with 40 samples.

Results

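The genes described here are 48 Saccharomyces cerevisiae genes for the synthesis of amino acids that contain no sulfur, and they were chosen by name from the 5 deposited target tables. Each name stood in all 5 tables, so that all 48 of 48 genes were found among the 7125 gene rows of a table. They fall into 8 branches, with 7 genes for arginine, 11 for the branched-chain amino acids, 6 for lysine, and 7 for histidine. A further 5 are for tryptophan, 7 others (the ARO genes) for the aromatic amino acids, 2 for asparagine, and 3 for serine. Binding of 5 transcription factors (TFs), Ino2, Ino4, Hap1, Oaf1, and Pip2, had been mapped by ChIP-exo, in which DNA cross-linked to a TF is pulled down and trimmed by an exonuclease up to the edge of the protein. The 40 samples are 2 for each TF and condition. All strains were CEN.PK 113-5D, each with 1 TF carrying a C-terminal tandem affinity purification tag (CBP-ProtA), expressed from its own locus, and with a URA3 marker from Kluyveromyces lactis. All cells grew in chemostats on minimal medium, in which they make their own amino acids. N-lim cultures were limited by nitrogen with 6% glucose, Et-lim by 0.5% ethanol, Ox,Glu-lim by oxygen and glucose with 1% glucose, and Glu-lim by 0.75% glucose (weight per volume, as in the sample labels; for Ox,Glu-lim the methods text gives another amount). Et-lim and Glu-lim are the respiratory conditions and N-lim and Ox,Glu-lim the fermentative ones.

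A table gives, for each gene and condition, the highest binding event within 1200 bp, with its position, its distance from the start codon, a short sequence (k-mer) at the event, and its log2(S/N), the log2 ratio of signal to noise. Events enter the tables above a log2(S/N) of 1, or an S/N of 2, and a gene with such an event is called listed below. The duplicates were pooled before deposition. Each value therefore stands alone, with no SD and no test, and a difference between values cannot be set against a spread between replicates. The depth of the libraries is not known, and no values of an untagged strain or an input sample were used here. Over all genes the shortest distance given is 101 bp, so events nearer to a start codon are not seen.

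Amino acid synthesis in yeast is known for its common control by Gcn4, an activator that is made when amino acids run short and that binds sites with the core TGACTC upstream of genes of many branches. Single branches have regulators of their own, such as Leu3 for the branched-chain genes, which binds CCG repeats in an inverted arrangement, and Lys14 for the lysine genes. The 5 mapped TFs are known for other pathways. Ino2 and Ino4 are basic helix-loop-helix (bHLH) proteins that bind as a pair to CATGTG-type sites at genes of phospholipid synthesis. Hap1 responds to heme, and Oaf1 and Pip2 pair at genes of fatty acid oxidation.

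At least 1 of the TFs was listed on 16 of the 48 genes (33.3%), against 19.2% of all gene rows. Ino2 accounted for most of them, with 12 genes (25.0%), against 11.7% of all rows. Ino4 was listed on 5 genes (10.4%), against 9.46% of all rows, and Hap1 on 3 (6.25%), against 6.65%. Oaf1 was listed on 3 genes (6.25%), against 6.34% of all rows, and Pip2 on 1 (2.08%), against 3.30%. With events past the 3′ end of a gene left out, the share of all rows was 2.11% for Pip2 and unchanged for the other TFs. The shares for Ino4, Hap1, Oaf1, and Pip2 were thus near those of all genes. Set beside protein-coding genes alone, the 33.3% stood against 20.7%, and for Ino2 the 25.0% stood against 12.8%. The events were mostly weak, with a median log2(S/N) of 1.92 over the 48 entries of the 16 genes, against 2.63 over the 5178 entries of all genes. For Ino2 the median was 1.73 over 25 entries, against 2.36 over the 1736 of all genes. With only events above a log2(S/N) of 2 counted, 6 of the 48 genes (12.5%) remained for any TF, against 12.4% of all rows, and 4 (8.33%) for Ino2, against 6.86%. The higher share for Ino2 thus lay mostly in events between the deposition limit and a log2(S/N) of 2.

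**Figure D1:**
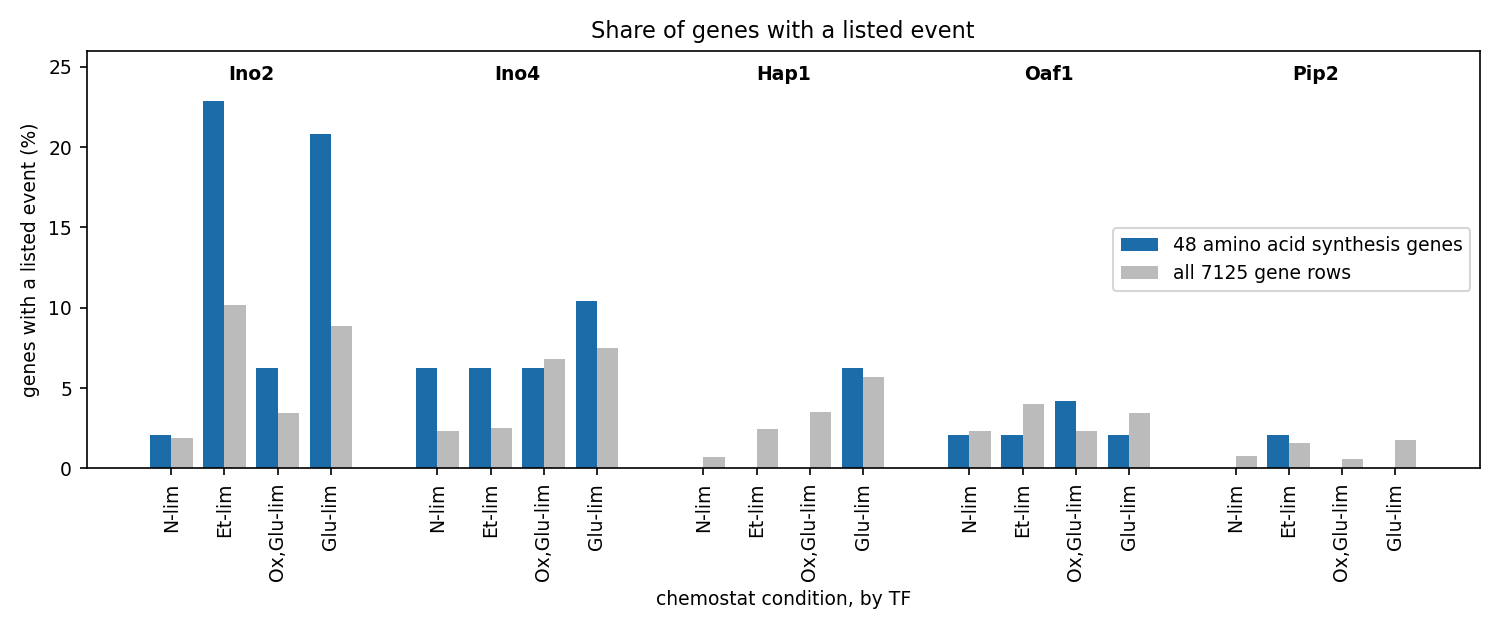
Share of genes with a listed event (y axis, %) for each TF and condition (x axis), for the 48 amino acid synthesis genes (blue) and all 7125 gene rows (grey). The blue bars stand furthest above the grey ones for Ino2 in Et-lim (22.9%, against 10.2%) and Glu-lim (20.8%, against 8.86%), while Hap1 is at 0 in 3 conditions and Pip2 in 3.

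By condition, Ino2 was listed on 1 gene in N-lim (1.87% of all rows), 11 in Et-lim (10.2%), 3 in Ox,Glu-lim (3.47%), and 10 in Glu-lim (8.86%). The 11 and 10 genes make up 22.9% and 20.8% of the 48. Ino4 was listed on 3 genes in N-lim (2.33% of all rows), 3 in Et-lim (2.50%), 3 in Ox,Glu-lim (6.82%), and 5 in Glu-lim (7.51%). For Ino4, 3 genes make up 6.25% of the 48 and 5 genes 10.4%. Hap1 was listed on 3 genes in Glu-lim (5.68% of all rows) and on none in Et-lim (2.48%), N-lim (0.730%), or Ox,Glu-lim (3.51%). Oaf1 was listed on 1 gene in N-lim (2.30% of all rows), 1 in Et-lim (4.01%), 2 in Ox,Glu-lim (2.33%), and 1 in Glu-lim (3.44%). Pip2 had its only gene in Et-lim (1.59% of all rows), with none in N-lim (0.758%), Ox,Glu-lim (0.575%), or Glu-lim (1.74%). The branches differed in which TF was seen on them. Hap1 was listed on lysine genes only, the serine gene carried Oaf1 only, and Ino4 was listed on arginine, branched-chain, and histidine genes. With 1 to 3 genes in each such group, these are descriptions of single genes.

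**Figure D2:**
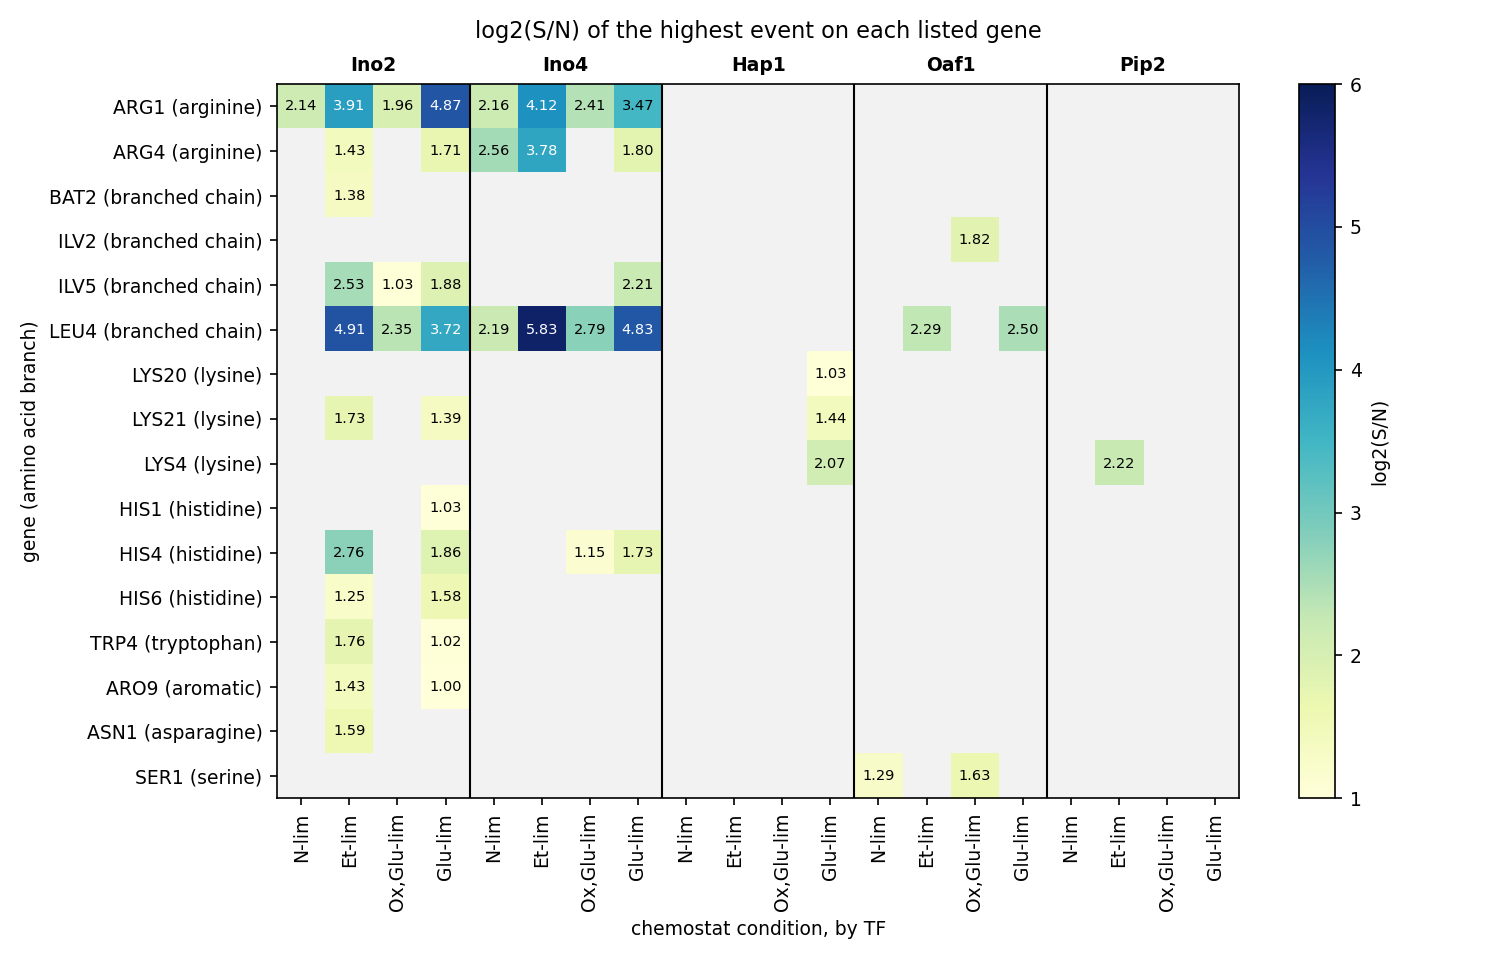
log2(S/N) of the highest event (color scale and printed values) on the 16 listed genes (rows, with their branch) in each condition for each TF (columns); grey cells hold no listed event. ARG1 and LEU4 hold the 6 highest values, up to 5.83 for Ino4 on LEU4 in Et-lim, while the 10 genes with no value above 2 hold 1 to 3 values each.

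In the arginine branch, Ino2 and Ino4 were listed on ARG1 and ARG4, which encode the enzymes of the last 2 steps, argininosuccinate synthase and argininosuccinate lyase. These are 2 of 7 genes (28.6%), against 19.2% of all rows for any TF. The other 5 genes, ARG2, ARG3, ARG7, ARG8, and CPA1, had no event for any TF. ARG1 (YOL058W, chrXV:219211-220473 in R64, plus strand) was the only one of the 48 genes listed for Ino2 in all 4 conditions (1.38% of all rows). Its log2(S/N) for Ino2 was 2.14 in N-lim, 3.91 in Et-lim, 1.96 in Ox,Glu-lim, and 4.87 in Glu-lim. For Ino4 it was 2.16 in N-lim, 4.12 in Et-lim, 2.41 in Ox,Glu-lim, and 3.47 in Glu-lim. Both TFs thus had higher values in the respiratory conditions, with no overlap. In Glu-lim the Ino2 value ranked 66 of 631 listed genes. The Ino4 value of 4.12 in Et-lim ranked 121 of 178, and that of 2.41 in Ox,Glu-lim ranked 210 of 486. The level of all Ino4 values differed between conditions. Their median over all genes was 2.98 in N-lim, 4.68 in Et-lim, 2.24 in Ox,Glu-lim, and 2.50 in Glu-lim. All 8 events lay 425 to 442 bp upstream of the start codon. Of these, 7 were within 2 bp of each other and next to a CACATG, the other strand of CATGTG, whereas the Ino2 event in Ox,Glu-lim, at 442 bp, had the k-mer TTTTCAC.

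ARG4 (YHR018C, chrVIII:140011-141402, minus strand) held a weaker Ino2 event and an Ino4 event within 1 bp of it, 138 or 139 bp upstream. Its log2(S/N) for Ino2 was 1.43 in Et-lim and 1.71 in Glu-lim, with no event in N-lim and Ox,Glu-lim. For Ino4 it was 2.56 in N-lim, 3.78 in Et-lim, and 1.80 in Glu-lim, with none in Ox,Glu-lim. The Ino2 values were all below the Ino4 values. In Et-lim the Ino2 value ranked 583 of 725 listed genes and the Ino4 value 133 of 178, so both were low in their own lists. Windows of 41 bp around the highest event of each gene (R64, plus strand) are shown because the same 6 letters, in capitals, lie at both.
ARG1, Ino2 in Glu-lim, chrXV:218765-218805: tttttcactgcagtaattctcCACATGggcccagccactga
ARG4, Ino4 in Et-lim, chrVIII:141520-141560: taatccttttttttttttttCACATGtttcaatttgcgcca

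In the branched-chain branch, 4 of 11 genes were listed (36.4%, against 19.2% of all rows for any TF), and LEU4 had the highest value of all 48 genes. LEU4 (YNL104C, chrXIV:424895-426754, minus strand) encodes the main α-isopropylmalate synthase, the first enzyme of the leucine arm, and it was the only one of the 48 genes listed for 3 TFs (4.42% of all rows had 3 or more). For Ino2 its log2(S/N) was 4.91 in Et-lim, 2.35 in Ox,Glu-lim, and 3.72 in Glu-lim, with no event in N-lim. For Ino4, where LEU4 and ARG1 were both listed in all 4 conditions (1.29% of all rows), it was 2.19 in N-lim, 5.83 in Et-lim, 2.79 in Ox,Glu-lim, and 4.83 in Glu-lim. The highest, 5.83, ranked 50 of 178 listed genes in that table and condition, and the Ino2 value of 4.91 ranked 84 of 725. Oaf1 was listed with 2.29 in Et-lim and 2.50 in Glu-lim. The Ino2 and Ino4 events lay 683 to 694 bp upstream of LEU4, and the Oaf1 events 449 and 451 bp upstream, 234 to 245 bp from those of Ino2 and Ino4 in the same conditions.

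LEU4 is transcribed away from MET4, which encodes the activator of the sulfur amino acid genes, and all 9 LEU4 entries are listed for MET4 too, with the same values. The Ino2 and Ino4 events lay 288 to 299 bp upstream of MET4 and thus nearer to it than to LEU4, while the Oaf1 events lay 531 and 533 bp from MET4 and nearer to LEU4. The tables cannot tell which of the 2 genes an event acts on. When an event was counted for its nearest gene only, LEU4 kept Oaf1 and lost Ino2 and Ino4. The windows show the full CACATGC at the Ino2 and Ino4 events, in capitals, and the Oaf1 k-mer of 5 letters, in capitals, at the separate Oaf1 event.
LEU4, Ino2 in Et-lim, chrXIV:427427-427467: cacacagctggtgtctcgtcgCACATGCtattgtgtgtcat
LEU4, Ino4 in Et-lim, chrXIV:427416-427456: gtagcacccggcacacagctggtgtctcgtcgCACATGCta
LEU4, Oaf1 in Glu-lim, chrXIV:427184-427224: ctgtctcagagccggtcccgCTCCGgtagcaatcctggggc

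ILV5 (YLR355C, chrXII:838066-839253, minus strand) encodes acetohydroxyacid reductoisomerase, which serves isoleucine and valine. For Ino2 its log2(S/N) was 2.53 in Et-lim, 1.03 in Ox,Glu-lim, and 1.88 in Glu-lim, and Ino4 was listed in Glu-lim alone with 2.21. The 4 events lay within 8 bp of each other, 278 to 286 bp upstream, in a stretch of alternating purines and pyrimidines, and they are listed for ATG33 too, at 783 to 791 bp. ILV2 (YMR108W, chrXIII:484084-486147, plus strand), the catalytic subunit of acetolactate synthase, had 1 entry, Oaf1 in Ox,Glu-lim with 1.82 at 476 bp upstream. BAT2, the cytosolic branched-chain aminotransferase, which also acts in breakdown, had 1 entry, Ino2 in Et-lim with 1.38 at 458 bp. In the windows, capitals mark the k-mer of the Ino2 event at ILV5, and at ILV2 a match to the Leu3-type site (CCGG, any 2 bases, CCGG), which lies 8 bp from the Oaf1 event and 459 to 468 bp upstream of the gene.
ILV5, Ino2 in Et-lim, chrXII:839510-839550: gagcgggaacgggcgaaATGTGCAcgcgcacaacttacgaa
ILV2, Oaf1 in Ox,Glu-lim, chrXIII:483588-483628: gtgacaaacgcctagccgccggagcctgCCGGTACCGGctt

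Of 7 histidine genes, 3 were listed (42.9%, against 19.2% of all rows for any TF). All 3 were listed for Ino2 (11.7% of all rows) and HIS4 for Ino4 too. HIS4 (YCL030C, chrIII:65934-68333, minus strand) encodes an enzyme of several histidine steps and is a long-used reporter of Gcn4 control. Its log2(S/N) for Ino2 was 2.76 in Et-lim and 1.86 in Glu-lim, and for Ino4 1.15 in Ox,Glu-lim and 1.73 in Glu-lim. Unlike on the arginine genes, these 4 events did not share a place. The Ino2 events lay 300 and 210 bp upstream and the Ino4 events 477 and 429 bp upstream, so that in Glu-lim the 2 TFs were 219 bp apart. All but the Ino2 event in Glu-lim fell inside BIK1, the gene for a microtubule-binding protein next to HIS4. HIS6, an isomerase of the pathway, was listed for Ino2 with 1.25 in Et-lim and 1.58 in Glu-lim at 155 bp upstream, an event that lies 119 bp upstream of FAF1 and is listed there too. HIS1, ATP phosphoribosyltransferase and the first enzyme, had 1 entry, Ino2 in Glu-lim with 1.03 at 363 bp. Windows of the HIS4 events for Ino2 are shown for the contrast between them. The higher one has no k-mer, and at the lower one the capitals mark the k-mer, beside a TGACTC on the other strand (gagtca).
HIS4, Ino2 in Et-lim, chrIII:68612-68652: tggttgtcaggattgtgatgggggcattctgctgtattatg
HIS4, Ino2 in Glu-lim, chrIII:68522-68562: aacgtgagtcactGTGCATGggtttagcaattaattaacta

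The lysine branch held all 3 genes listed for Hap1, and each was listed in Glu-lim alone. LYS4 (YDR234W, chrIV:931129-933210, plus strand), the homoaconitase, had 2.07 for Hap1 in Glu-lim at 513 bp upstream, ranked 249 of 405, and 2.22 for Pip2 in Et-lim at 149 bp upstream, ranked 76 of 113. The Hap1 event is nearer to RTN1, an endoplasmic reticulum reticulon gene that is listed with it at 260 bp. The Pip2 event is listed for RTN1 too, at 624 bp. LYS21 and LYS20 encode the homocitrate synthases that start the pathway. LYS21 (YDL131W, chrIV:227393-228715, plus strand) had 1.73 for Ino2 in Et-lim at 170 bp, 1.39 for Ino2 in Glu-lim at 333 bp, and 1.44 for Hap1 in Glu-lim at 404 bp, where Ino2 and Hap1 were 71 bp apart. LYS20 had 1 entry, Hap1 in Glu-lim with 1.03 at 531 bp, which ranked 401 of 405 and is listed for YDL183C too, at 1074 bp. The Hap1 values on LYS20 and LYS21 are thus near the deposition limit, and only that on LYS4 is above 2. Capitals in the windows mark the k-mers at the Hap1 event of LYS4 and at the highest event of LYS21, and the Pip2 event of LYS4 has none and lies within an AT repeat.
LYS4, Hap1 in Glu-lim, chrIV:930596-930636: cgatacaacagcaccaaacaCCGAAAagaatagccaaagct
LYS4, Pip2 in Et-lim, chrIV:930960-931000: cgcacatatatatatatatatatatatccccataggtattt
LYS21, Ino2 in Et-lim, chrIV:227203-227243: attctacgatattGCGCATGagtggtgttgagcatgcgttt

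The remaining branches had 1 listed gene each, none with a value above 2. TRP4 (YDR354W, chrIV:1184747-1185889, plus strand), anthranilate phosphoribosyltransferase, was listed for Ino2 with 1.76 in Et-lim and 1.02 in Glu-lim. Its event lay 948 bp upstream, the longest distance among the 48 genes, and inside TRR1, the gene for thioredoxin reductase. SER1 (YOR184W, chrXV:679357-680544, plus strand), phosphoserine aminotransferase, was listed for Oaf1 with 1.29 in N-lim at 295 bp and 1.63 in Ox,Glu-lim at 265 bp. Both SER1 events lie inside FYV12 and are listed for RPS30B, a ribosomal protein gene, at 270 and 300 bp. ARO9, an aromatic aminotransferase that also breaks down aromatic amino acids, was listed for Ino2 with 1.43 in Et-lim and 1.00 in Glu-lim at 520 bp, and ASN1, asparagine synthetase, for Ino2 with 1.59 in Et-lim at 322 bp. The ARO9 event is listed for YCK1 too, at 880 bp, and the ASN1 event for NOC4, at 876 bp. In the windows, capitals mark the CACATGC of the TRP4 event, read on the other strand, and the k-mer of the higher SER1 event.
TRP4, Ino2 in Et-lim, chrIV:1183779-1183819: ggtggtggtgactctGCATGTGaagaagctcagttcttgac
SER1, Oaf1 in Ox,Glu-lim, chrXV:679072-679112: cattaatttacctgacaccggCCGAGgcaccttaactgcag

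The 32 genes with no event for any TF in any condition are ARG2, ARG3, ARG7, ARG8, and CPA1 for arginine, BAT1, ILV1, ILV3, ILV6, LEU1, LEU2, and LEU9 for the branched-chain amino acids, LYS1, LYS2, and LYS9 for lysine, and HIS2, HIS3, HIS5, and HIS7 for histidine. In the other branches they are TRP1, TRP2, TRP3, and TRP5, ARO1, ARO2, ARO3, ARO4, ARO7, and ARO8, ASN2, and SER2 and SER3. Among isozyme pairs, LYS20 and LYS21 were both listed and ARO3 and ARO4 were both not. LEU4 was listed and LEU9 was not, the cytosolic BAT2 was listed and the mitochondrial BAT1 was not, ASN1 was listed and ASN2 was not, and ARO9 was listed and ARO8 was not. An unlisted gene may hold an event below the limit, which the tables do not show.

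Ino2 and Ino4 can be compared on the genes they share, since they bind DNA as a pair. All 5 genes listed for Ino4 were listed for Ino2, which is 41.7% of the 12 Ino2 genes and 100% of the 5 Ino4 genes, and 10.4% of the 48 (8.10% of all rows). Over all genes, the 577 shared genes were 69.3% of the Ino2 genes and 85.6% of the Ino4 genes. ARO9, ASN1, BAT2, HIS1, HIS6, LYS21, and TRP4 were listed for Ino2 without Ino4, with values of 1.00 to 1.76. In 11 cases both TFs were listed on a gene in the same condition, and in 10 of these (90.9%) the events lay within 20 bp, against 80.2% of 923 cases over all genes. Ino4 was higher in 9 of the 11 cases (81.8%), against 65.4% over all genes. The 11 cases come from 5 genes, some of them counted in several conditions, and the 923 come from 474 genes. Ino2 was higher on ARG1 in Glu-lim, with 4.87 for Ino2 and 3.47 for Ino4, and on HIS4 in Glu-lim. The difference of Ino2 minus Ino4 was furthest from 0 on ARG4 in Et-lim, at -2.35. In that condition the median over all listed genes was 2.34 for Ino2 and 4.68 for Ino4, so the 2 lists themselves differ in level. Oaf1 and Pip2, which also pair, shared none of the 48 genes (1.42% of all rows were listed for both).

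**Figure D3:**
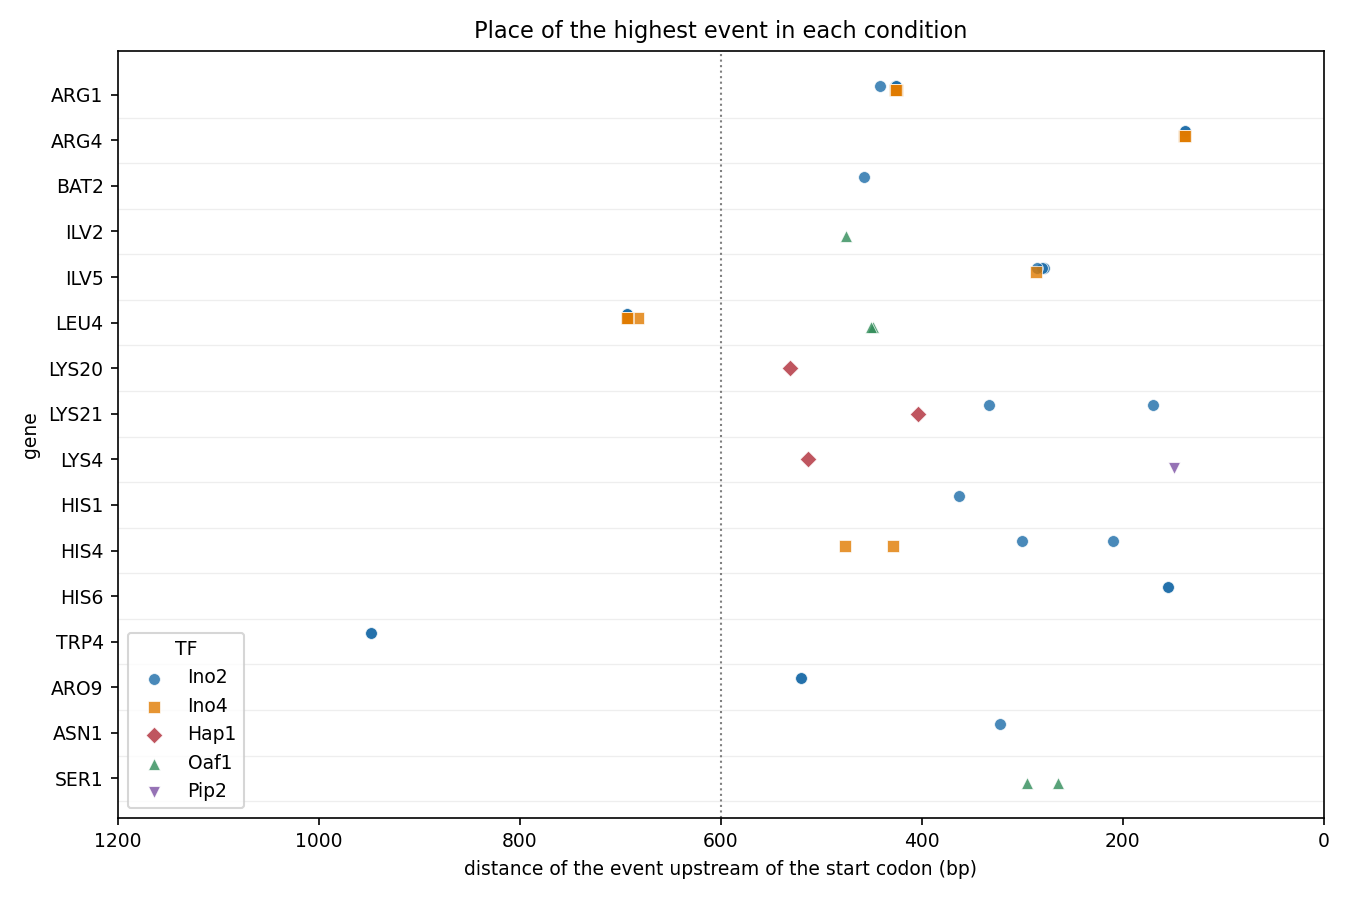
Distance of each event upstream of the start codon (x axis, bp) on the 16 listed genes (rows), with 1 point for each TF and condition and a dotted line at 600 bp. The Ino2 and Ino4 points coincide on ARG1, ARG4, ILV5, and LEU4 and are apart on HIS4, and the points of LEU4 for Ino2 and Ino4 (683 to 694 bp) and of TRP4 (948 bp) lie beyond 600 bp.

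All 48 entries lay upstream of the start codon, at a median of 426.0 bp, against 451.0 bp over all genes, and 39 (81.2%) lay within 600 bp, against 67.8% of all entries. Of 15 pairs of a gene and a TF with events in 2 or more conditions, 11 had all of them within 20 bp, and 6 within 1 bp. The places that moved were the weak ones on LYS21 for Ino2 (163 bp between Et-lim and Glu-lim) and SER1 for Oaf1 (30 bp), and those on HIS4 for Ino2 (90 bp) and Ino4 (48 bp). On 8 genes, 23 entries are listed for a neighbour as well. On 4 of these, LEU4, HIS6, LYS4, and SER1, 11 entries are nearer to the start codon of the neighbour. The counts of stable places and of shared entries stand without a share over all genes, so they are not read as traits of these genes.

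The respiratory conditions held more of the Ino2 genes. All 12 were listed in Et-lim or Glu-lim (11.3% of all rows) and 3, ARG1, ILV5, and LEU4, in N-lim or Ox,Glu-lim (3.94% of all rows). The 9 listed in respiratory conditions alone (7.75% of all rows) were ARG4, ARO9, ASN1, BAT2, HIS1, HIS4, HIS6, LYS21, and TRP4. None of the 48 was listed in fermentative conditions alone, which is rare over all genes too (0.351% of all rows). On all 3 genes listed on both sides, the highest respiratory value exceeded the highest fermentative one. The difference was 2.73 on ARG1 (4.87 respiratory, 2.14 fermentative), 1.51 on ILV5 (2.53 respiratory, 1.03 fermentative), and 2.56 on LEU4 (4.91 respiratory, 2.35 fermentative). Over all 256 such genes the median difference was 1.33, and 85.2% were higher in respiratory conditions, so that the direction on these 3 genes was that of Ino2 in general.

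For Ino4, 5 genes were listed in respiratory conditions (7.62% of all rows) and 4 in fermentative ones (7.24%). LEU4 differed most, by 3.03 (5.83 respiratory, 2.79 fermentative), followed by ARG1 with 1.71 (4.12 respiratory, 2.41 fermentative), ARG4 with 1.22 (3.78 respiratory, 2.56 fermentative), and HIS4 with 0.57 (1.73 respiratory, 1.15 fermentative). These compare the highest value of each side. On ARG4 the Glu-lim value, 1.80, lay below the N-lim value of 2.56. Over all 385 such genes the median difference for Ino4 was 0.58, with 66.8% higher in respiratory conditions. The respiratory values of LEU4, ARG1, and ARG4 here are those of Et-lim, where the Ino4 median over all genes was 4.68. Oaf1 on these genes did not follow 1 side, with LEU4 in Et-lim and Glu-lim and with ILV2 and SER1 in fermentative conditions alone (0.954% of all rows).

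The sequence upstream of the 48 genes was searched in R64 for exact matches on both strands within 600 bp of the start codon. TGACTC, the Gcn4 core, lay upstream of 33 of the 48 genes (68.8%), against 15.3% of the 5986 protein-coding genes. It was found on 7 of 7 arginine, 6 of 7 histidine, 8 of 11 branched-chain, 3 of 5 tryptophan, 3 of 7 aromatic, 2 of 2 asparagine, 2 of 3 serine, and 2 of 6 lysine genes. The Leu3-type site (CCGG, any 2 bases, CCGG) lay upstream of 5 genes, all in the branched-chain branch (BAT1, ILV2, ILV5, LEU1, and LEU2), or 10.4% of the 48, against 0.334% of protein-coding genes. The sites of the mapped TFs were near their general share. CATGTG lay upstream of 8 genes (16.7%), against 16.4%, and CACATGC, which contains it on the other strand, upstream of 2 (4.17%), against 4.46%. CACGTG was on 5 genes (10.4%, against 7.23%), CCGATA of Hap1 on 5 (10.4%, against 13.1%), CGGNNNTAA of Oaf1 on 6 (12.5%, against 16.4%), and CCGNNNTA of Pip2 on 15 (31.2%, against 39.1%). The long Hap1 site was on ILV5 alone (2.08%, against 0.535%), a gene with no listed Hap1 event. The Hap1, Oaf1, and Pip2 sites can overlap each other.

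**Figure D4:**
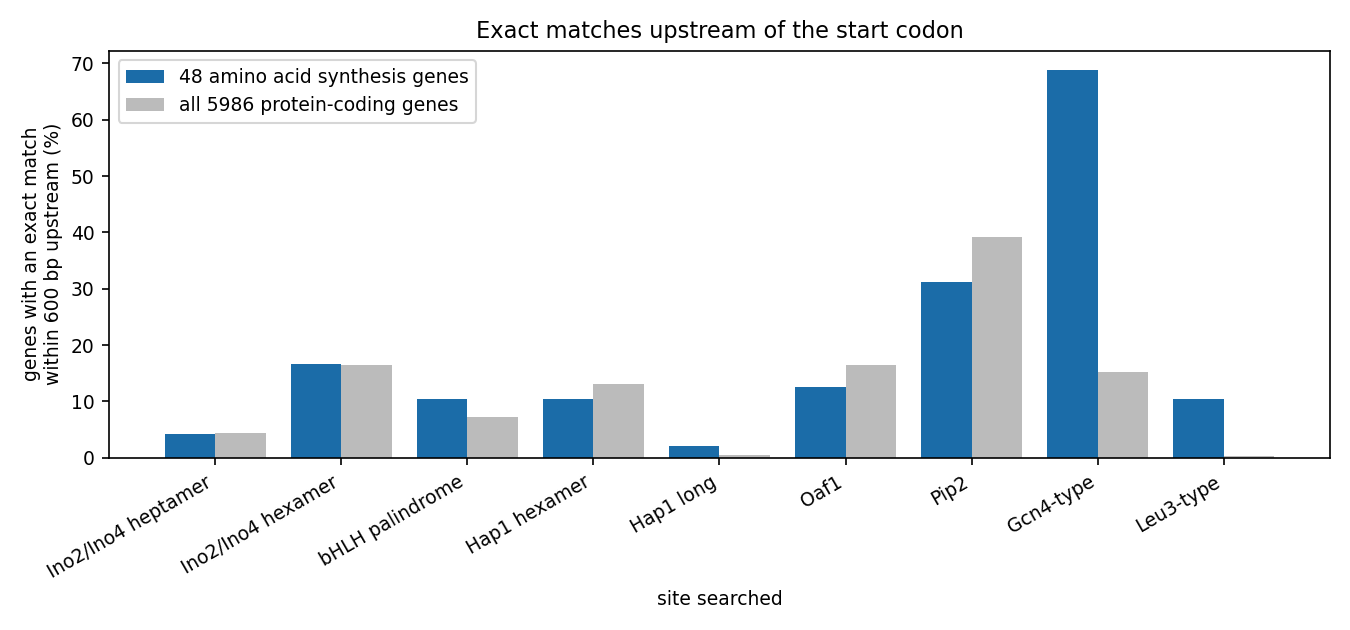
Share of genes (y axis, %) with an exact match within 600 bp upstream of the start codon for 9 sites (x axis), for the 48 amino acid synthesis genes (blue) and all 5986 protein-coding genes (grey). The Gcn4-type core stands apart, at 68.8% against 15.3%, and the Leu3-type site at 10.4% against 0.334%, while the Ino2/Ino4 hexamer is at 16.7% against 16.4%.

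A Gcn4 core was as frequent on listed genes (11 of 16, 68.8%) as on unlisted ones (22 of 32, 68.8%). Of the 12 Ino2 genes, 10 held it (83.3%), against 23 of the other 36 (63.9%). Over all protein-coding genes, 13.7% of those with the core were listed for Ino2, and 12.6% of those without it. The distance between cores and events differed from gene to gene. On ARG1 the 2 cores lay 80 bp or more from any event and on ARG4 36 bp or more, and on LEU4 the core lay 581 bp or more from the Ino2 and Ino4 events. On HIS4, 3 cores lay 10, 29, and 41 bp from an Ino2 event, and on ILV5 the nearest of 3 lay 21 bp from the Ino4 event. On TRP4 the Ino2 event had a core at 7 bp, inside TRR1 and apart from the core within 600 bp of the start codon. Within 20 bp, TGACTC was at 2 of 18 distinct Ino2 events of these genes, those of HIS4 in Glu-lim and TRP4, against 0.708% of 847 over all genes, and at 0 of 11 Ino4 events, against 0.994% of 905. Within 10 bp it was wholly contained at 0 of the 18 Ino2 events, against 0.472%. Within 50 bp it was at 8 of the 18, on ARG4, ARO9, HIS4, ILV5, and TRP4, against 2.83%, and at 3 of the 11 Ino4 events, on ARG4 and ILV5, against 2.87%. Events of 1 gene that lie a few bp apart in different conditions are counted as distinct, as on ILV5. Upstream of these genes the core is more frequent as such, as given above, and its part in these counts was not tested.

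CATGTG lay within 20 bp of 5 of the 18 distinct Ino2 events, against 25.5% of 847 over all genes, and of 8 of the 11 distinct Ino4 events, against 36.7% of 905. These events are on ARG1, ARG4, LEU4, and, for Ino2 alone, TRP4, so that the counts rest on 4 genes. The Ino4 events on each of ARG1, ARG4, and LEU4 lie within 11 bp of each other, in different conditions. CACGTG lay within 20 bp of 1 of the 18 Ino2 events, that of ARO9, against 6.26% over all genes. Within 20 bp of the 3 Hap1 events, 0 matches to CCGATA were found, against 23.7% of 570 events over all genes, and 0 to the long Hap1 site, against 2.63%. For Oaf1, CGGNNNTAA lay by 1 of 5 events, that of SER1 in N-lim, against 17.1% of 590 over all genes. With so few events, neither count is told apart from the general share. The full CACATGC lay with no listed event upstream of ARO3, a DAHP synthase that starts the aromatic pathway, and of ILV6, the regulatory subunit of acetolactate synthase. Over all protein-coding genes, 35.6% of those with CACATGC were listed for Ino2, and 11.7% of those without it. The matches lay 141 to 147 bp upstream of ARO3 (plus strand) and 379 to 385 bp upstream of ILV6 (minus strand), and are shown, in capitals, as the counterpart of the LEU4 windows.
ARO3, chrIV:521652-521692: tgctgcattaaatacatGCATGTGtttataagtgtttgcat
ILV6, chrIII:105910-105950: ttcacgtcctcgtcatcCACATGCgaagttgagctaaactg

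Other genes of these pathways were mostly not listed. Of 35 further enzymes, carriers, and regulators found by name, 3 (8.57%) had an event for any TF, against 19.2% of all rows. GLY1, threonine aldolase, which makes glycine, was listed for Oaf1 in all 4 conditions, with 3.55 in N-lim, 3.51 in Et-lim, 3.36 in Ox,Glu-lim, and 3.89 in Glu-lim, 364 to 374 bp upstream. These values exceeded every Oaf1 value on the 48 genes, though the GLY1 events are shared with IES6 on the other strand. GLY1 was also listed for Ino2 (2.45 in Et-lim and 1.98 in Glu-lim), Ino4 (1.09 in Ox,Glu-lim and 2.65 in Glu-lim), and Hap1 (1.09 in Glu-lim). OAC1, the mitochondrial oxaloacetate carrier, which also carries α-isopropylmalate, the product of LEU4, was listed for Hap1 with 2.67 in Et-lim, 2.07 in Ox,Glu-lim, and 1.43 in Glu-lim, and for Oaf1 with 1.39 in Ox,Glu-lim. Among 11 regulators, GCN4 alone was listed. For Ino2 it had 2.40 in Et-lim and 1.65 in Glu-lim at 752 bp upstream. For Ino4 it had 1.96 in Glu-lim at 944 bp, an event that is listed for MIT1 too. LEU3, LYS14, and the other 8 regulators had no event.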

How the data were processed

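The authors aligned the ChIP-exo reads to S. cerevisiae R64-2-1 with Bowtie2, removed low-quality reads, trimmed 70 bases from the 3′ end, called events with GEM over the duplicates, and set the signal of an event against the mean noise of each replicate. The submitters' notes also name SAMtools and bedtools; versions are not given in the sources used here. The deposited log2 values, the log2(S/N) of the authors, are kept above 1, and each gene has its highest event within 1200 bp. The deposited files also hold other values of the authors, which are the position, k-mer, strand, and distance of each event.

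From 5 tables, 100 columns were read, with conditions from the headers. Per file, 1 line was emptied for this work. Of 7125 gene rows, 6163 were matched by name to the R64 reference, among them all 48 genes and 5986 protein-coding genes. Event distances differed from those computed on that reference by at most 1 bp in all 48 entries. Sequences, coordinates, and strands are from RefSeq R64. Counts, medians, and exact matches were computed with Python 3.11.15, pandas 2.3.3, NumPy 2.4.6, and matplotlib 3.10.9, and the procedures were tested on simulated data. No test was run, since duplicates are pooled and the genes and lists were chosen with earlier results of these data known. All 16 listed genes are named; 10 are described in full, which are those listed for 3 TFs or in all 4 conditions and those with the 10 highest values. The window of the second HIS4 event and those of ARO3 and ILV6 were chosen after their values were seen.

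Alternatives were log2(S/N) above 1.5 or 2, distances up to 600 bp, the nearest gene only, leaving out events past the 3′ end of a gene, a background of protein-coding genes, and other widths for shared places and for windows around events.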

Additional observations from a re-analysis of the deposited data

How the results depend on the processing

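Of 255 recomputed counts, 218 stayed within 1.5 times and 37 did not, 22 of them above a log2(S/N) of 2 and 7 above 1.5. Under these settings shares of all rows were computed by TF only, so counts by condition, branch, or pair of TFs stand without one. Above a log2(S/N) of 2, the listed genes numbered 6 for any TF (12.4% of all rows) and 4 for Ino2 (6.86%). They numbered 1 for Hap1 (4.66% of all rows) and 1 for Oaf1 (4.63%), with 3 for both Ino2 and Ino4. By condition they were 4 for Ino2 in Et-lim, 1 in Ox,Glu-lim, and 2 in Glu-lim, 3 for Ino4 in Glu-lim, 1 for Hap1 in Glu-lim, and 0 for Oaf1 in N-lim and in Ox,Glu-lim. By branch they were 2 branched-chain, 1 histidine, and 1 lysine genes, and 0 aromatic, tryptophan, asparagine, and serine genes. In respiratory conditions there were 4 for Ino2 and 1 for Hap1, and in fermentative ones 0 for Oaf1. Above 1.5 there were 12 for any TF (25.0%, against 15.9% of all rows) and 9 for Ino2 (18.8%, against 8.97%). There was 1 for Hap1 (2.08%, against 5.53%), in Glu-lim and in respiratory conditions. By condition there were 7 for Ino2 in Et-lim, 6 for Ino2 in Glu-lim, and 0 for Oaf1 in N-lim, and the aromatic branch had 0. Up to 600 bp the tryptophan branch had 0, and with the nearest gene only Oaf1 in N-lim had 0. Up to 600 bp LEU4 was listed for Oaf1 alone. Within 10 bp of events TGACTC was at 0 Ino2 events and CGGNNNTAA at 0 Oaf1 events, and within 50 bp TGACTC was at 8 Ino2 and 3 Ino4 events, CACGTG at 2 Ino2 events, and CGGNNNTAA at 2 Oaf1 events. No recomputed count moved beyond 1.5 times when events past the 3′ end were left out, nor did the counts for shared places of Ino2 and Ino4 or for CATGTG with other widths.

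No paired analysis was possible because the duplicates are pooled in the deposited tables, and leaving out each replicate was not run for that reason. The number of listed genes differs between TFs and conditions, so that counts at the deposition limit are read against all genes of the same TF and condition. No value here has a measured error, which matters most for values just above 1. Such values are those on ARO9, HIS1, LYS20, and TRP4 in Glu-lim, and on ILV5 for Ino2 in Ox,Glu-lim (1.03).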
